A study of Mus musculus with 10 samples.

Results

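The 9 genes described here carry out or control the last steps of glucose production in the liver cell and the passage of glucose across its membrane: Pcx, Pck1, Fbp1, Fbp2, Pfkfb1, G6pc, Slc37a4, Slc2a2 and Gckr. They were chosen by symbol from 56748 genes in tables of counts and FPKM, and all 9 were found and passed the filter on low counts. The libraries came from primary hepatocytes of wild-type mice kept overnight in medium that cultured adipocytes had conditioned. In the group Mttp_KO_CM the adipocytes came from A-Mttp-/- mice, which lack Mttp in adipose tissue, and in the group Mttp_flox_CM from Mttp f/f mice, with 5 libraries each. Mttp encodes the microsomal triglyceride transfer protein, and the hepatocytes themselves carried no deletion. All fat donors were male and had eaten an obesogenic diet for 6 months. Their inguinal stromal vascular cells were differentiated with IBMX, insulin, dexamethasone, indomethacin and rosiglitazone, and the resulting adipocytes were starved overnight before the medium was taken. The labels give 3 fat donor mice without saying how they were pooled. They do not name the promoter behind the adipose deletion or say how many mice gave hepatocytes.

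Gluconeogenesis turns lactate, glycerol and amino acids into glucose, and in the fasted animal it is chiefly the work of hepatocytes. It runs most of glycolysis backwards but bypasses the irreversible glycolytic steps with its own enzymes: pyruvate carboxylase and phosphoenolpyruvate carboxykinase at the entry, fructose bisphosphatase in the middle, and glucose-6-phosphatase at the end. Glucose leaves or enters the hepatocyte through the transporter encoded by Slc2a2, and Gckr encodes a regulatory protein of glucose use in the liver.

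Library totals lay between 14283517 and 17178131 counts in Mttp_KO_CM and between 14199798 and 15950530 counts in Mttp_flox_CM. In each group 1 column had a number that no label gives, so these 2 libraries are called unnumbered, and the calls below were repeated without them. Markers of hepatocytes were the most abundant of the marker lists, with a summed level of 58789 to 60620 CPM (read count scaled to library size) in Mttp_KO_CM and 72241 to 75671 CPM in Mttp_flox_CM. Of 20 such markers 12 were lower and 4 higher in Mttp_KO_CM, where 18.1% of all genes tested were lower and 18.2% higher. All 15 endothelial markers tested were lower (sum 1418 to 1504 against 2565 to 2749 CPM), and 9 of 11 stellate cell markers tested were lower (54.0 to 61.7 against 101 to 112 CPM), as were 13 of 14 macrophage markers (684 to 771 against 978 to 1087 CPM), while Cd68 was higher. Of 7 cholangiocyte markers 4 were lower (313 to 378 against 577 to 640 CPM). In bulk RNA, fewer cells of a type and less RNA per cell cannot be told apart, and the part of these shifts in the results below was not tested.

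Knockout medium went with more transcript of the middle and final enzymes, Fbp2, G6pc and Fbp1, and less of Pcx and Pck1 at the entry, of the transporter Slc2a2, and of the regulators Pfkfb1 and Gckr. Of the 9 genes 3 rose, 5 fell and 1, Slc37a4, did not pass (edgeR quasi-likelihood test, adjusted p under 0.05 over 14183 genes). Over all genes tested 36.4% were called, 18.2% higher and 18.1% lower in Mttp_KO_CM. With library size alone in place of TMM scaling (trimmed mean of M values), 38.1% of the called genes were higher, against 50.1% with it, and the counts of 3 and 5 among the 9 genes were the same. Every Mttp_KO_CM library lay above every Mttp_flox_CM library for Fbp2, G6pc and Fbp1, a pattern shown by 13.0% of all genes tested. Every Mttp_KO_CM library lay below for Slc2a2, Pfkfb1 and Pcx, as for 12.7% of all genes tested. The median log2 change of the 9 genes was -0.33, where that of all genes tested was 0.0012. Among the genes called, the largest change was 13.1-fold higher for Fbp2 and the smallest 1.25-fold lower for Pcx. The largest fall was 1.76-fold, for Slc2a2, and 91.6% of all genes tested changed by less than 1.5-fold.

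**Figure D1:**
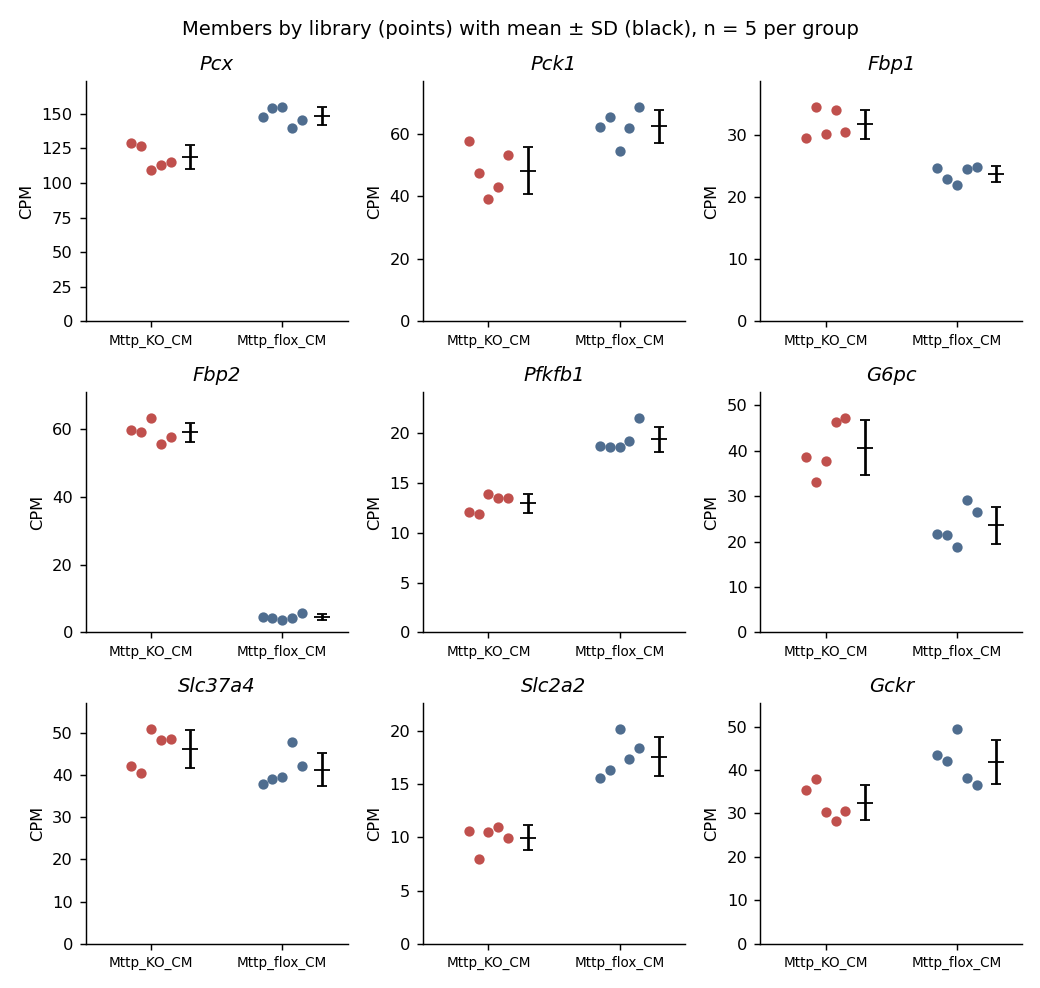
Normalised level (CPM, vertical axes from 0) of the 9 genes in every library, Mttp_KO_CM in red on the left and Mttp_flox_CM in blue on the right, with the mean ± SD of 5 libraries in black. The groups are apart for Fbp2, G6pc, Fbp1, Slc2a2, Pfkfb1 and Pcx, and overlap for Pck1, Gckr and Slc37a4.

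The step from fructose 1,6-bisphosphate to fructose 6-phosphate showed the greatest change. Fbp2 encodes the fructose bisphosphatase isoform best known from muscle, and Fbp1 encodes the liver isoform. Fbp2 had 59.6, 59.3, 63.3 and 55.6 CPM in Mttp_KO_CM replicates 1 to 4 and 57.6 CPM in the unnumbered library, against 4.68, 4.22, 3.60, 4.28 and 5.79 CPM in Mttp_flox_CM. All 5 Mttp_KO_CM libraries were close together and far above all 5 Mttp_flox_CM libraries. These values rest on 807 to 1070 counts per library in Mttp_KO_CM and 58 to 85 in Mttp_flox_CM. Fbp2 averaged 59.1 ± 2.85 CPM in Mttp_KO_CM and 4.51 ± 0.813 CPM in Mttp_flox_CM (SD, n = 5 each), a log2 change of 3.72 (SE 0.076, adjusted p = 3.7e-22) and the 8th largest rise among the 14183 genes.

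Fbp1 moved in the same direction by much less. It had 29.6, 34.5, 30.1, 34.0 and 30.4 CPM in Mttp_KO_CM, against 24.6, 22.8, 21.9, 24.5 and 24.8 CPM in Mttp_flox_CM, replicates 1 to 4 first and the unnumbered library last. The lowest Mttp_KO_CM library was still above the highest Mttp_flox_CM library, and Fbp1 rose 1.34-fold (log2 0.42, SE 0.058, adjusted p = 2.8e-06). Per length, Fbp2 supplied 68.3 ± 2.28% of the summed FPKM of both isoforms in Mttp_KO_CM and 18.0 ± 2.02% in Mttp_flox_CM (SD, n = 5 each). Its share ran from 65.5% to 70.9% in Mttp_KO_CM and from 16.0% to 21.3% in Mttp_flox_CM, so the more abundant fructose bisphosphatase transcript was Fbp2 in every Mttp_KO_CM library and Fbp1 in every Mttp_flox_CM library. The summed level of the pair was 58.5 ± 1.73 FPKM in Mttp_KO_CM and 16.9 ± 1.26 FPKM in Mttp_flox_CM.

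**Figure D2:**
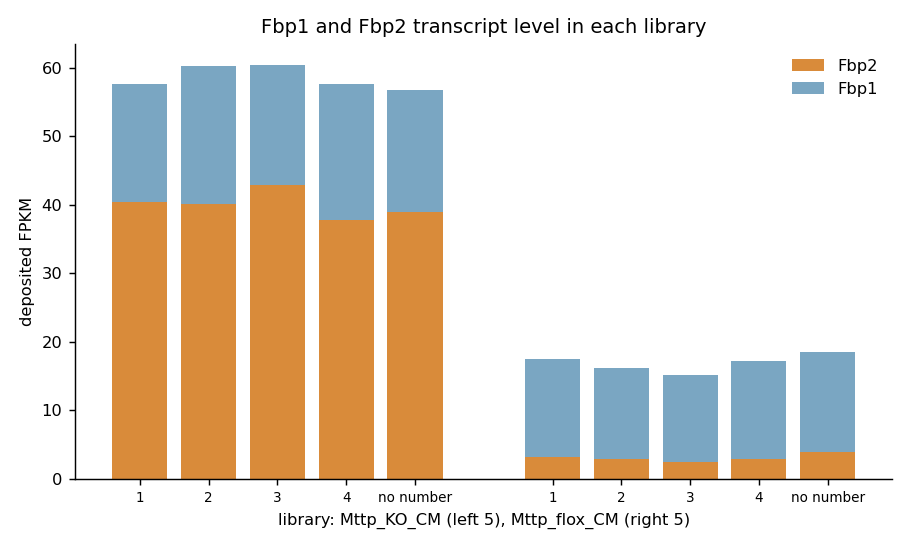
Deposited FPKM (vertical axis) of Fbp2 (orange) and Fbp1 (blue), stacked, in each library, the 5 of Mttp_KO_CM on the left and the 5 of Mttp_flox_CM on the right. The orange part makes up 65.5% to 70.9% of the bar on the left and 16.0% to 21.3% on the right.

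Markers of skeletal muscle, where Fbp2 is best known, were at or near 0. Ckm, Myh1, Myh4, Myod1 and Tnnt3 had 0 counts in all 10 libraries, only Pygm was high enough to test and did not pass (log2 0.18), and the 9 markers summed to 0.980 to 1.64 CPM in Mttp_KO_CM and 0.627 to 1.59 CPM in Mttp_flox_CM. Fbp1 and Fbp2 are neighbours on the minus strand of chromosome 13 (GRCm39), Fbp2 (ENSMUSG00000021456) at 62984691 to 63006236 and Fbp1 (ENSMUSG00000069805) at 63012567 to 63036096, with 6330 bases between them. No other annotated gene overlaps either of them. The longest run of bases that transcripts of the 2 genes share exactly is 23 bases in GENCODE M21.

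The promoters of these neighbours are shown because their genes rose together but by very different amounts. Each runs from 250 bases before the RefSeq start site to 50 after it (GRCm38.p6, which is not the build of the counts), Fbp2 at chr13:62858351-62858650 and Fbp1 at chr13:62888233-62888532, both on the minus strand and written 5′ to 3′. Capitals mark matches on either strand to the motifs searched. Matches had to be exact, except in the pair of cores named below, so variant sites are not marked.
Fbp2: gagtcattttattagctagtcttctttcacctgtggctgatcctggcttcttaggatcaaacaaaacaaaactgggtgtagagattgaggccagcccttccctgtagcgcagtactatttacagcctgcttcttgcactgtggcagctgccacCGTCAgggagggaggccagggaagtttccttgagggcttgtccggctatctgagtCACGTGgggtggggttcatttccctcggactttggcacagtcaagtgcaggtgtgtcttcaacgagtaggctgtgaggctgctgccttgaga
Fbp1: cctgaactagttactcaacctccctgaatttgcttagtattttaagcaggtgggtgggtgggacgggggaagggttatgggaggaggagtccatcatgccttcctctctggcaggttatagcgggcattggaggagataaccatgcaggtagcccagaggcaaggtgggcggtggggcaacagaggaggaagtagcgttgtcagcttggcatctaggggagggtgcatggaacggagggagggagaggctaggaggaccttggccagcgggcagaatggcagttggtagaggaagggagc
Fbp2 held the core of the cAMP response element, TGACG, as its complement at position -97, and the E-box CACGTG at position -42, counted from 1 at the start site and at the first base of the match. Fbp1 held none of the motifs searched in this window. Of 32851 RefSeq promoters of the same length, 20.8% held TGACG and 7.15% held CACGTG. The other motifs searched were the nuclear receptor core AGGTCA (16.3% of promoters), a pair of such cores 1 base apart with at most 2 mismatches in all (3.86%), the forkhead site GTAAACA (3.65%) and the TATA box TATAAA (13.6%). No search pattern contained another, except that the pair holds the nuclear receptor core.

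At the entry to gluconeogenesis both enzymes fell. Pcx encodes pyruvate carboxylase, which makes oxaloacetate from pyruvate in mitochondria. The gene (ENSMUSG00000024892) lies on the plus strand of chromosome 19 at 4560500 to 4671780, and it had 129, 127, 109, 113 and 115 CPM in Mttp_KO_CM, against 148, 154, 155, 140 and 146 CPM in Mttp_flox_CM (replicates 1 to 4, then the unnumbered library). Every Mttp_KO_CM library was below every Mttp_flox_CM library. Lrfn4, which overlaps Pcx, had 109 counts over all libraries, against 20311 for Pcx. The means were 119 ± 8.71 CPM in Mttp_KO_CM and 149 ± 6.39 CPM in Mttp_flox_CM (SD, n = 5 each), and Pcx fell by 0.33 on the log2 scale (SE 0.043, adjusted p = 1.3e-06).

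Pck1 (ENSMUSG00000027513, chromosome 2, 172994841 to 173001066, plus strand) encodes the cytosolic phosphoenolpyruvate carboxykinase, which turns oxaloacetate into phosphoenolpyruvate and is a classic transcriptional target of glucagon and fasting. It had 57.7, 47.4, 39.3, 43.1 and 53.4 CPM in Mttp_KO_CM, against 62.2, 65.3, 54.4, 61.8 and 68.6 CPM in Mttp_flox_CM. The groups overlapped, since the highest Mttp_KO_CM library, replicate 1, exceeded the lowest Mttp_flox_CM library, replicate 3. Pck1 fell by 0.38 on the log2 scale (SE 0.076, adjusted p = 0.00031). It had the widest spread of the 9 genes within Mttp_KO_CM, with a coefficient of variation of 15.5%, against 8.43% in Mttp_flox_CM.

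Pck2, the mitochondrial isoform, was at 33.8 ± 1.41 CPM in Mttp_KO_CM and 32.9 ± 1.60 CPM in Mttp_flox_CM (log2 0.04, 95% interval -0.06 to 0.14, adjusted p = 0.57). Per length, Pck1 made up 76.2 ± 3.14% of the summed FPKM of both isoforms in Mttp_KO_CM and 81.1 ± 1.80% in Mttp_flox_CM. The ratio of Pcx to Pck1 in FPKM was 1.80 ± 0.199 in Mttp_KO_CM and 1.73 ± 0.197 in Mttp_flox_CM, with overlapping ranges of 1.56 to 2.01 in Mttp_KO_CM and 1.53 to 2.05 in Mttp_flox_CM. Pck1 is also an adipocyte gene. Among the adipocyte markers Cfd and Lep had 0 counts in all 10 libraries and Adipoq, Plin1 and Retn were too low to test. The list summed to 140 to 153 CPM in Mttp_KO_CM and 134 to 147 CPM in Mttp_flox_CM, with Lipe and Fabp4 higher and Pparg lower.

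Pfkfb1 (ENSMUSG00000025271, chromosome X, 149371225 to 149426874, plus strand) encodes the liver form of the bifunctional enzyme that makes and removes fructose 2,6-bisphosphate, a signal that activates phosphofructokinase and inhibits fructose bisphosphatase. It had 12.0, 11.9, 13.9, 13.4 and 13.4 CPM in Mttp_KO_CM, against 18.7, 18.6, 18.6, 19.2 and 21.5 CPM in Mttp_flox_CM, with no overlap. Pfkfb1 fell by 0.58 on the log2 scale (SE 0.073, adjusted p = 6.4e-07), a level 1.49-fold lower in Mttp_KO_CM. Of its 3 relatives, Pfkfb3 fell by 0.62 (SE 0.050, adjusted p = 2.8e-10) and Pfkfb2, named after its value was seen, fell by 0.43 (SE 0.050, adjusted p = 2.2e-07), while Pfkfb4 had a log2 change of -0.26 (SE 0.16, adjusted p = 0.23) and did not pass. Pfkfb1 overlaps Apex2, a DNA repair gene on the opposite strand of chromosome X, and counts not known to use strand cannot separate their reads there. Apex2 was at 15.9 ± 1.03 CPM in Mttp_KO_CM and 17.1 ± 1.29 CPM in Mttp_flox_CM (log2 -0.10, SE 0.072, adjusted p = 0.29).

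The last step, release of glucose from glucose 6-phosphate, takes place in the endoplasmic reticulum, where G6pc encodes the catalytic subunit and Slc37a4 the transporter that brings in the substrate. G6pc lies on chromosome 11 at 101258387 to 101268729 (ENSMUSG00000078650) and Slc37a4 on chromosome 9 at 44308149 to 44314265 (ENSMUSG00000032114), both on the plus strand. G6pc had 38.7, 33.2, 37.7, 46.4 and 47.2 CPM in Mttp_KO_CM, against 21.7, 21.6, 18.9, 29.1 and 26.5 CPM in Mttp_flox_CM. All Mttp_KO_CM libraries were above all Mttp_flox_CM libraries. The means were 40.6 ± 6.03 CPM in Mttp_KO_CM and 23.6 ± 4.14 CPM in Mttp_flox_CM (SD, n = 5 each), a 1.72-fold rise (log2 0.79, SE 0.096, adjusted p = 4.2e-07). In each group replicate 4 and the unnumbered library were the highest.

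Slc37a4 had 42.1, 40.6, 50.9, 48.4 and 48.5 CPM in Mttp_KO_CM, against 37.8, 39.2, 39.5, 47.9 and 42.3 CPM in Mttp_flox_CM. The groups overlapped and the log2 change of 0.16 did not pass (95% interval 0.03 to 0.29, adjusted p = 0.058). It passed without Mttp_KO_CM replicate 1 (adjusted p = 0.027), without Mttp_KO_CM replicate 2 (0.0165), without Mttp_flox_CM replicate 4 (0.00925) and with no filter on low counts (0.0164). Over all alternatives its adjusted p ran from 0.0092 to 0.17 and its log2 change from 0.12 to 0.21. The ratio of G6pc to Slc37a4 in FPKM was 1.04 ± 0.118 in Mttp_KO_CM and 0.672 ± 0.0686 in Mttp_flox_CM. G6pc3, a more widely expressed relative of G6pc named after its value was seen, was at 10.0 ± 1.61 CPM in Mttp_KO_CM and 10.5 ± 1.14 CPM in Mttp_flox_CM and did not pass (log2 -0.06, SE 0.11, adjusted p = 0.70).

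The promoters of G6pc and Pck1 are shown because these textbook fasting genes moved in opposite directions here. They are RefSeq windows of 300 bases on the plus strand (GRCm38.p6), G6pc at chr11:101367466-101367765 and Pck1 at chr2:173152823-173153122, with capitals as above.
G6pc: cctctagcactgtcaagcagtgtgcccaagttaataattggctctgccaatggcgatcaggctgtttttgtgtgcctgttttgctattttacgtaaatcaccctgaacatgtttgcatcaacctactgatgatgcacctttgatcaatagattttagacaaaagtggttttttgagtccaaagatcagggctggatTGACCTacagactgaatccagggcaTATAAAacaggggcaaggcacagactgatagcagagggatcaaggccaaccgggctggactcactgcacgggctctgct
Pck1: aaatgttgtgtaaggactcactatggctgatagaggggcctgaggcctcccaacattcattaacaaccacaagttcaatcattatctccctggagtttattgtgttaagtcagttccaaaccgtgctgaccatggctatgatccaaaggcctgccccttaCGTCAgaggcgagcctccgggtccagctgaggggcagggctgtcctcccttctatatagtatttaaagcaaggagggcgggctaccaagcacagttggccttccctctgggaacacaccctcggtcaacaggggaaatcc
G6pc held the complement of AGGTCA at position -54 and the TATA box TATAAA at position -29. Pck1 held the complement of TGACG at position -90. As only exact strings were searched, other forms of these sites in either window were not looked for. All 9 genes matched the promoter table, with 15 windows in all. Besides those printed, the window of Slc2a2 held AGGTCA at position -21, and that of Gckr held none of the motifs. Pcx, Slc37a4 and Pfkfb1 had several start sites each, and the sole pair of nuclear receptor cores, with 2 mismatches, was in a window of Slc37a4.

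The genes of glucose entry fell. Slc2a2 encodes GLUT2, the low-affinity transporter through which hepatocytes take up and release glucose. The gene (ENSMUSG00000027690, chromosome 3, 28752052 to 28785508, plus strand) had 10.6, 7.93, 10.5, 11.0 and 9.92 CPM in Mttp_KO_CM, against 15.6, 16.4, 20.2, 17.4 and 18.5 CPM in Mttp_flox_CM, with no overlap. The counts behind these values were 113 to 178 per library in Mttp_KO_CM and 223 to 326 in Mttp_flox_CM. Slc2a2 fell by 0.81 on the log2 scale (SE 0.092, adjusted p = 1.1e-07), a level 1.76-fold lower in Mttp_KO_CM and the largest fall of the 9 genes. The 20 hepatocyte markers had a median log2 change of -0.20, and their part in the fall of Slc2a2 was not tested. Slc2a1, the transporter GLUT1 of most cell types, was at 124 ± 4.78 CPM in Mttp_KO_CM and 96.2 ± 1.68 CPM in Mttp_flox_CM and rose (log2 0.37, SE 0.034, adjusted p = 5e-09). Per length its FPKM was 20.6 ± 2.27 times that of Slc2a2 in Mttp_KO_CM and 9.05 ± 0.938 times in Mttp_flox_CM, so GLUT1 transcript exceeded GLUT2 transcript in every library.

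Gckr (ENSMUSG00000059434, chromosome 5, 31454787 to 31484658, plus strand) had 35.5, 37.9, 30.2, 28.3 and 30.5 CPM in Mttp_KO_CM, against 43.4, 42.2, 49.4, 38.2 and 36.5 CPM in Mttp_flox_CM. The groups overlapped, as Mttp_KO_CM replicate 2 was above the unnumbered Mttp_flox_CM library. Gckr fell by 0.37 on the log2 scale (SE 0.076, adjusted p = 0.00039).

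**Figure D3:**
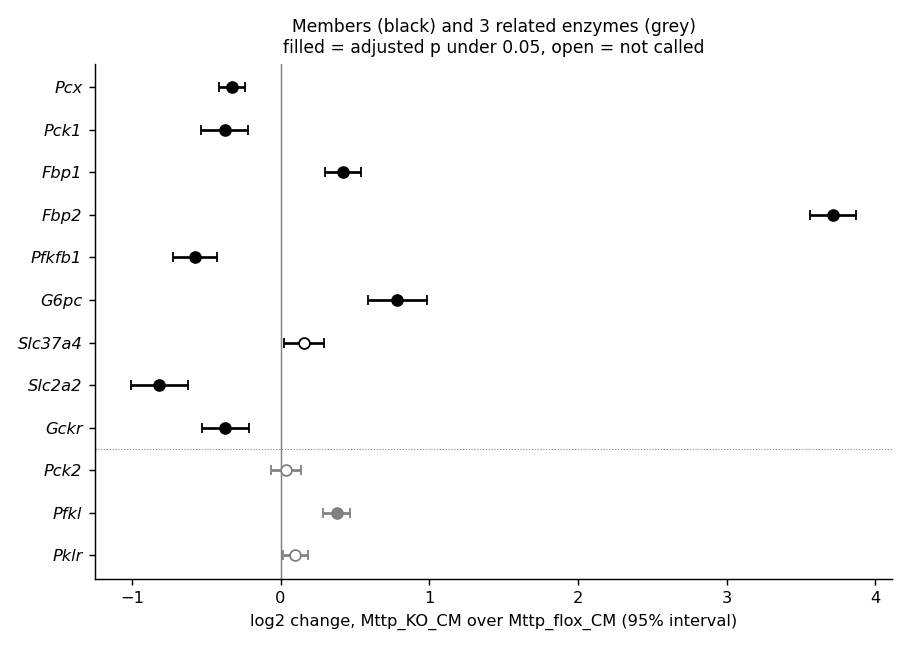
Log2 change, Mttp_KO_CM over Mttp_flox_CM (horizontal axis), with its 95% interval, for the 9 genes (black) and 3 related enzymes (grey), where filled points passed an adjusted p of 0.05 and open points did not. Fbp2 stands at 3.72, and the other 8 of the 9 genes lie between -0.81 (Slc2a2) and 0.79 (G6pc).

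Set side by side per length, the 9 genes changed their order. In Mttp_KO_CM the order by mean FPKM was Fbp2 (40.0 ± 1.91), Pcx (24.8 ± 1.81), Fbp1 (18.5 ± 1.38), G6pc (16.7 ± 2.49), Slc37a4 (16.1 ± 1.57), Pck1 (14.0 ± 2.15), Gckr (7.45 ± 0.918), Pfkfb1 (3.20 ± 0.230) and Slc2a2 (1.73 ± 0.211). Neighbours from Fbp1 to Pck1 overlapped over libraries, and the others in that order did not. In Mttp_flox_CM it was Pcx (31.1 ± 1.30), Pck1 (18.1 ± 1.54), Slc37a4 (14.4 ± 1.41), Fbp1 (13.9 ± 0.775), G6pc (9.70 ± 1.72), Gckr (9.61 ± 1.15), Pfkfb1 (4.78 ± 0.310), Fbp2 (3.05 ± 0.554) and Slc2a2 (3.04 ± 0.315). There Pck1 overlapped Slc37a4, Slc37a4 overlapped Fbp1, G6pc overlapped Gckr and Fbp2 overlapped Slc2a2. Fbp2 thus stood first in Mttp_KO_CM and level with Slc2a2 at the bottom in Mttp_flox_CM, with a mean FPKM above that of 91.4% of the genes tested in Mttp_KO_CM and of 37.7% in Mttp_flox_CM. Pcx was above 85.7% of them in Mttp_KO_CM and 89.4% in Mttp_flox_CM, and Slc2a2 above 28.0% in Mttp_KO_CM and 37.7% in Mttp_flox_CM.

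**Figure D4:**
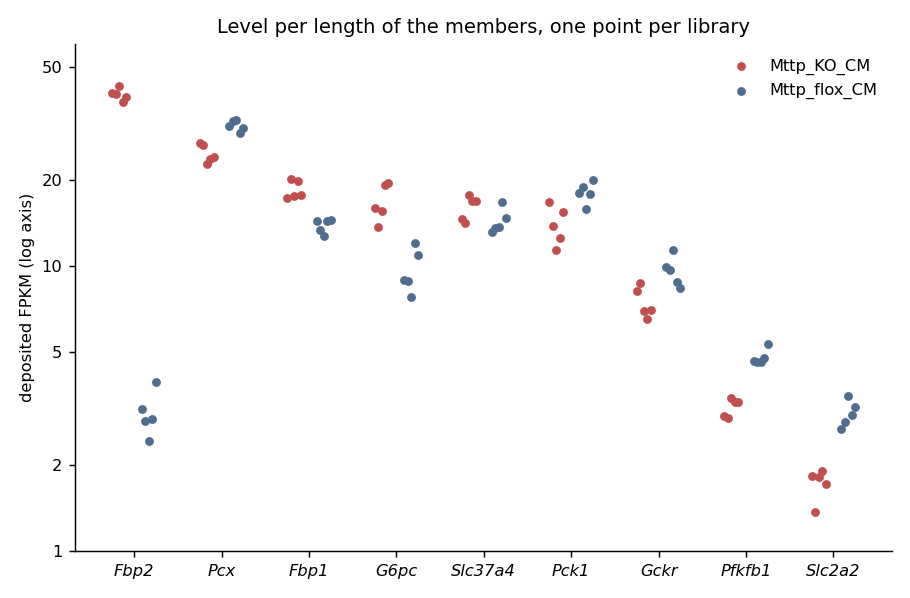
Deposited FPKM (log axis) of the 9 genes in each library, in the order of their mean in Mttp_KO_CM (red, left of each pair), with Mttp_flox_CM in blue. Fbp2 lies near 40.0 FPKM in Mttp_KO_CM and near 3.05 in Mttp_flox_CM, while the group means of every other gene differ by less than 2-fold.

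Among 24 genes that supply substrate to gluconeogenesis 13 rose and 4 fell (median log2 0.10). Of all genes tested 18.2% were higher and 18.1% lower. The monocarboxylate transporter Slc16a1, which carries lactate, averaged 170 ± 4.58 CPM in Mttp_KO_CM and 103 ± 3.94 CPM in Mttp_flox_CM (log2 0.71, SE 0.034, adjusted p = 8.9e-15). Glycerol kinase, Gk, which admits glycerol to the pathway, was at 160 ± 2.91 CPM in Mttp_KO_CM and 109 ± 3.39 CPM in Mttp_flox_CM (log2 0.56, SE 0.032). The cytosolic glycerol 3-phosphate dehydrogenase Gpd1 rose by 0.31 and the mitochondrial malate dehydrogenase Mdh2 by 0.23. The 4 that fell were named after their values were seen. The aminotransferase genes Tat and Gpt2 had log2 changes of -0.97 (SE 0.11) and -0.31 (SE 0.038). Ldhb, a lactate dehydrogenase subunit, averaged 3.05 ± 0.888 CPM in Mttp_KO_CM and 4.80 ± 0.900 CPM in Mttp_flox_CM (log2 -0.66, SE 0.18). The monocarboxylate transporter Slc16a7 had a log2 change of -0.18 (SE 0.043).

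Of 24 regulators of gluconeogenesis 11 rose and 7 fell (median log2 0.05), against 18.2% higher and 18.1% lower over all genes tested. Creb3l3, a liver transcription factor induced by fasting, averaged 717 ± 38.4 CPM in Mttp_KO_CM and 192 ± 11.4 CPM in Mttp_flox_CM (log2 1.90, SE 0.039, adjusted p = 3.7e-22). Klf15, a fasting-induced factor of amino acid breakdown, rose by 0.52 and the insulin receptor substrate gene Irs2 by 0.31. Sik1, a kinase that restrains the CREB coactivators, fell by 0.37. The others that fell were named after their values were seen. Ppargc1a had a log2 change of -0.39 (SE 0.14), Sik2 of -0.26 (SE 0.077) and Nr3c1 of -0.16 (SE 0.040). Insr had one of -0.16 (SE 0.031), Cebpa of -0.14 (SE 0.036) and Hnf4a of -0.08 (SE 0.026).

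Of 17 glycogen genes tested 2 rose and 3 fell (median log2 -0.01), where 36.4% of all genes tested were called. Ugp2, which makes UDP-glucose for glycogen, fell by 0.46 (SE 0.029, adjusted p = 3.9e-12), and the phosphorylase kinase subunit Phka2 fell by 0.20. The branching enzyme Gbe1 rose by 0.29 and the phosphoglucomutase Pgm1 by 0.27. The count of 2 higher was 4 without Mttp_KO_CM replicate 1 and 4 without the unnumbered Mttp_flox_CM library. Ppp1r3d and Ppp1r3g were too low to test.

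Among the other genes of glucose and fructose handling 3 of 12 tested rose, Slc2a1 and Khk among them, and 2 fell, Tkfc and Hk3 (median log2 -0.10). Over all genes tested 18.2% were called higher and 18.1% lower. Khk encodes ketohexokinase and Tkfc triokinase, and these consecutive enzymes of fructose breakdown had log2 changes of 0.33 (SE 0.045) and -0.26 (SE 0.034). The count of 2 lower was 3 with library size alone, without Mttp_KO_CM replicate 2 and without Mttp_KO_CM replicate 4. G6pc2, Slc2a10, Slc2a12, Slc2a4 and Slc2a5 were too low to test.

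Of 17 genes for the glycolytic steps that run beside or against gluconeogenesis 8 rose and 2 fell, namely Pfkfb2 and Pfkfb3 (median log2 0.17). The shares over all genes tested were 18.2% higher and 18.1% lower. Pfkl, the liver phosphofructokinase that works against fructose bisphosphatase, averaged 106 ± 6.29 CPM in Mttp_KO_CM and 81.6 ± 3.75 CPM in Mttp_flox_CM (log2 0.38, SE 0.043, adjusted p = 1.3e-07). The pyruvate kinase Pkm rose by 0.47, the aldolase Aldoa by 0.34 and the enolase Eno1 by 0.29. Gapdh, named after its value was seen, was at 83.4 ± 88.7 CPM in Mttp_KO_CM and 66.5 ± 112 CPM in Mttp_flox_CM. Its SD exceeded its mean in both groups, and it did not pass (log2 0.30, SE 0.67, adjusted p = 0.77). Pklr, the liver pyruvate kinase that works against Pcx and Pck1, did not pass (73.5 ± 1.95 CPM in Mttp_KO_CM and 68.7 ± 3.83 CPM in Mttp_flox_CM, log2 0.10, 95% interval 0.01 to 0.19, adjusted p = 0.066). It passed without the unnumbered Mttp_flox_CM library (adjusted p = 0.0392) and without both unnumbered libraries (0.0357), and its adjusted p ran from 0.028 to 0.28 over all alternatives.

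**Figure D5:**
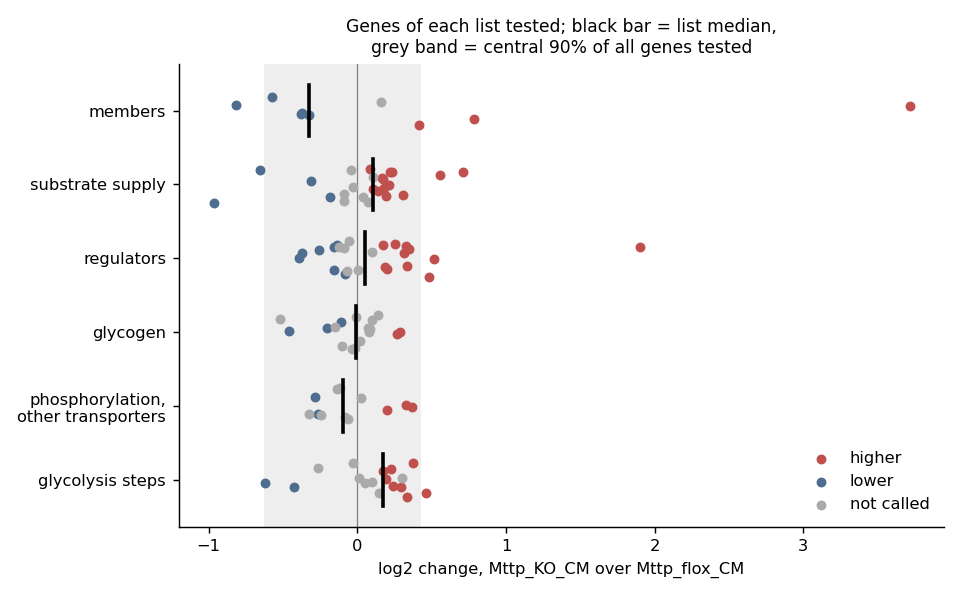
Log2 change, Mttp_KO_CM over Mttp_flox_CM (horizontal axis), of each gene tested in the 9 genes and the 5 other lists, coloured by call, with list medians as black bars and the central 90% of all genes tested (-0.62 to 0.42) as a grey band. Fbp2 at 3.72 and Creb3l3 at 1.90 lie farthest from the band, and the list medians run from -0.33 for the 9 genes to 0.17 for the glycolytic steps.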

How the data were processed

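Poly-A selected RNA was sequenced from 10 libraries, 5 per group. The authors deposited a table of whole-number counts per gene and a table of FPKM values, 1 column per library. HISAT2 2.0.5, featureCounts 1.5.0-p3 and build GRCm39 are named per the submitters' processing notes. Strand setting, annotation release and handling of reads that match several genes are not stated there. Deposited FPKM equalled counts per length over 1 constant per library, and summed counts were 1.01 ± 0.00375 (SD, n = 5) of that constant in Mttp_KO_CM and 0.982 ± 0.00138 in Mttp_flox_CM, so FPKM carried a scaling the sources do not describe. FPKM was used only for levels between genes and for ratios, which were not tested.

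Counts were tested in R 4.3.3 with edgeR 4.0.16: filterByExpr (minimum count 10, total 15) kept 14183 genes with 99.8% of counts, TMM factors scaled the libraries, and glmQLFTest compared the 2 groups, with Benjamini-Hochberg adjustment over all genes tested. CPM uses TMM-scaled library sizes, except in sums over marker lists. Log2 changes are Mttp_KO_CM over Mttp_flox_CM. The code was tested on simulated data. Columns were assigned by the labels' descriptions for 8 libraries and by their letter for the 2 unnumbered ones; 0 other value columns were present. No label ties the libraries to separate cultures or mice. The p-values therefore reflect just the variation among these libraries, possibly technical. No pairing of libraries across groups by replicate number was detected, which does not exclude one.

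The 9 genes, 5 pathway lists and 7 marker lists were chosen with earlier results of these data known. The text names the 9 genes, up to 4 genes past the threshold with the smallest p in each pathway list, and Pck2, Pklr and Pfkl. A few other list genes were named after their values were seen. Some genes of the lists are counted but not reported here by name. Of the listed symbols 1 was matched through a synonym, and 1 with 2 identifiers was read from the one with more counts. Alternatives were DESeq2 1.42.0, its size factors in edgeR, library size alone, other filters, limma 3.58.1 on log2(FPKM + 1), a block on replicate number, and leaving out libraries. Promoters are RefSeq's.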

Additional observations from a re-analysis of the deposited data

Results flagged for a closer look

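Pfkfb1 in Mttp_flox_CM had its highest value, 21.5 CPM, in the unnumbered library, where the next was 19.2 CPM. The gap was 0.799 of the range of the group, above Dixon's 95% critical value of 0.71 for 5 libraries. It was the sole such gap among 68 groups checked, 34 genes in each medium, and chance gives about 1 in 20. Without that library Pfkfb1 still fell, by 0.54 on the log2 scale.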

How the results depend on the processing

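The calls of the 8 genes that passed, in direction and side of the threshold, held under all 18 alternatives, and only Slc37a4 gained a call, under 4 of them. Leaving out 1 library at a time gave 3 to 4 of the 9 genes higher and 5 lower, and 2305 to 2491 genes higher and 2411 to 2521 lower over all genes. With a block on replicate number over the 8 numbered libraries, 3 were higher and 5 lower, and over all genes 2326 were higher and 2325 lower, where the same libraries without the block gave 2264 and 2307. Deviations of same-numbered libraries from their group means had correlations of -0.00887 to 0.0747 over 4 numbers, so the numbers were not taken as pairs. Fbp2's log2 change ran from 3.35 to 3.83 and that of Slc2a2 from -0.86 to -0.57, the smaller sizes on log2 of FPKM plus 1, where the added 1 shrinks changes of low genes. Of the other 24 genes that the naming rule picked, only Pklr gained a call, under 3 alternatives that include the block (adjusted p = 0.0282), and none lost one. Depth limits the genes under about 5 CPM most, Fbp2 in Mttp_flox_CM (58 to 85 counts) among the 9.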
